A study of Mus musculus with 8 samples.

Results

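The 9 genes described here set how the liver stores and releases glucose: glycogen synthase (Gys2), glycogen phosphorylase (Pygl), 3 subunits that bring a phosphatase to glycogen (Ppp1r3b, Ppp1r3c, Ppp1r3g), the glucose transporter GLUT2 (Slc2a2), pyruvate kinase (Pklr) and a pair of bifunctional enzymes that tune glycolysis (Pfkfb1, Pfkfb3). They were taken by gene symbol from a table of 43629 entries with values, and each symbol matched 1 entry. All 9 lie on GRCm38 and are annotated as protein-coding.

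The RNA came from whole liver of 8 male C57BL/6 mice of 7 to 8 weeks, 1 library per mouse. A tail vein injection of 5 µg antagomiR was followed after 48 h by 1 mg/kg CL316243 under the skin, and the mice were killed 2 h after that. The antagomiR, a modified antisense oligonucleotide, was directed against the liver microRNA miR-122 in 4 mice (antagomiR-122) and was a control oligonucleotide in 4 (antagomiR-control). CL316243 stimulates the β3-adrenergic receptor of fat cells, so every mouse of both groups was under lipolytic stimulation, and mice without it were not analysed here. Mature miR-122 was not measured in these libraries, so the degree of its inhibition is not known from them.

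Glycogen in the liver is built by glycogen synthase and broken down by glycogen phosphorylase, and both enzymes are switched by phosphorylation. Protein phosphatase 1 activates the synthase and inactivates the phosphorylase when a targeting subunit holds it on the glycogen particle. Glucose enters and leaves hepatocytes through GLUT2, and the flux into pyruvate is set by phosphofructokinase, which the Pfkfb enzymes control, and by pyruvate kinase.

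Levels are deposited FPKM values, which are fragment numbers divided by transcript length and library size. Log2 fold changes are differences of mean log2(FPKM + 1), antagomiR-122 minus antagomiR-control. The limma test ran over the 11131 genes whose mean reached 1 FPKM, and calls required a Benjamini-Hochberg adjusted p under 0.05. From the size of the lowest values, 7 libraries held an estimated 19500000 to 29200000 fragments and antagomiR-122 replicate 4 held 52900000, or 2.17 times the median. That last library stood apart from the rest. It lay at 38.2 on the first principal component, against -13.6 to 0.81 in the others, and 15 genes at 0 in it exceeded 5 FPKM in each of the other libraries. Its values are named below, and the log2 fold changes of all members except Pfkfb3 are also given without it. As whole liver was sequenced, fewer cells of a type and less RNA per cell cannot be told apart.

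On the log2(FPKM + 1) scale Ppp1r3b and Gys2 had the widest differences between the groups, in opposite directions. Neither passed the threshold, and nor did any other member, where 0% of the 11131 tested genes did. Ppp1r3b was lower in value with antagomiR-122 in 3 of 4 mice and Gys2 was higher in 3 of 4, each compared with every control. The authors' deposited table called Ppp1r3b lower, as the single call among the 9, beside 1.42% of the 13259 genes in their test (0.86% called lower). Ppp1r3g, the lowest gene of the 9, was also higher than every control in 3 of 4 mice, and its ratio of mean FPKM, 1.40, was close to the 1.35 of Gys2. For the other 6 members at most 2 mice of the antagomiR-122 group lay beyond the controls on one side. The share of all tested genes with 3 of 4 mice beyond every control was not counted. These counts therefore do not set the members apart from other genes. The plot of FPKM by mouse shows all values.

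**Figure D1:**
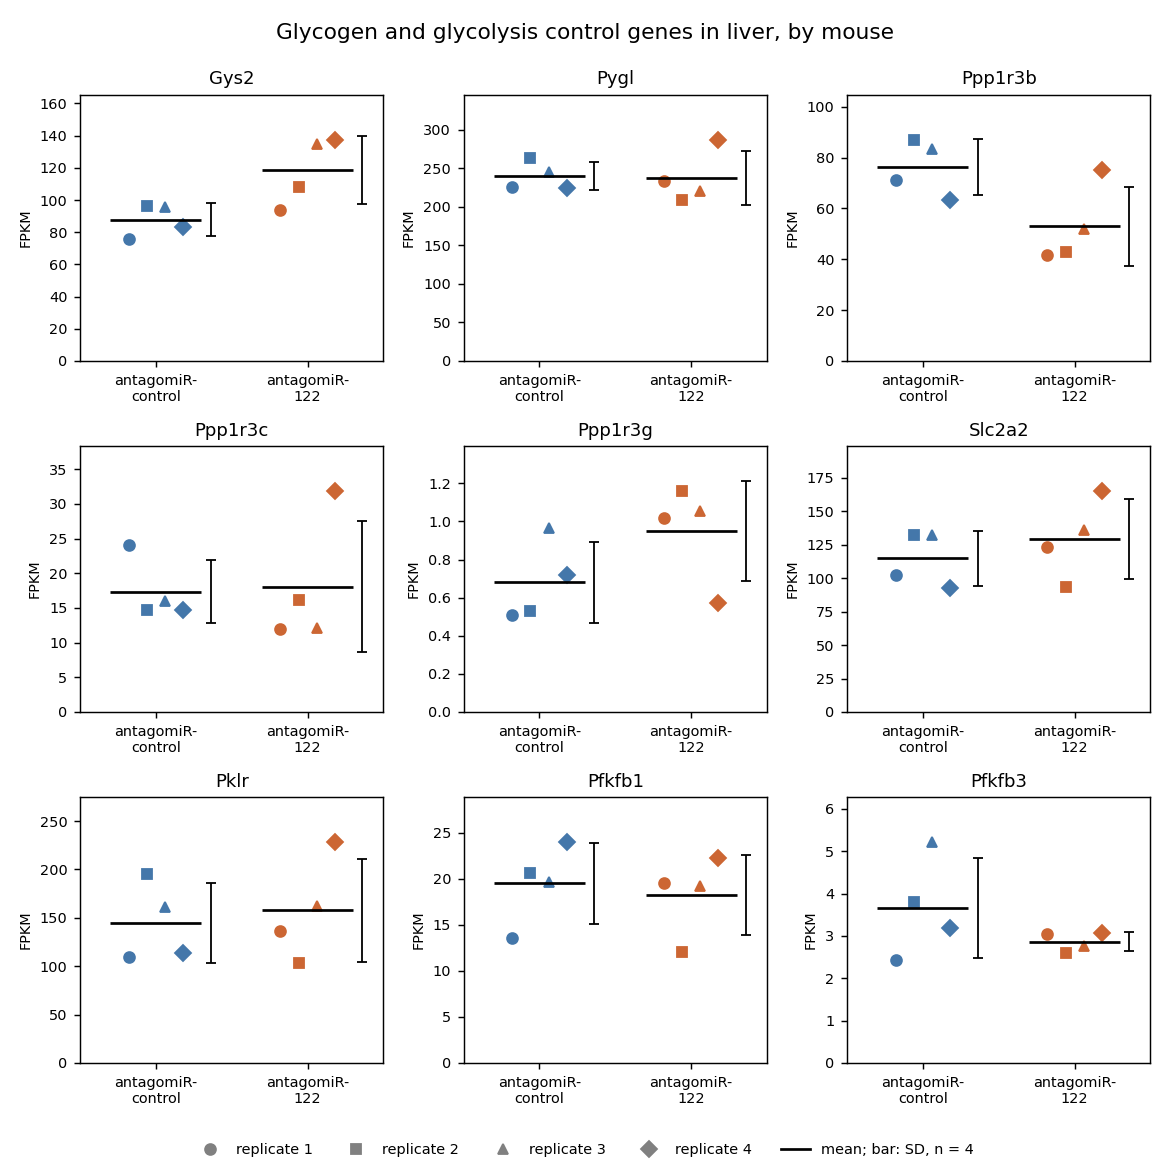
FPKM of the 9 genes in each liver, with 1 symbol per mouse and replicate, antagomiR-control in blue and antagomiR-122 in orange; horizontal lines are means and bars are SD (n = 4). Of the 4 antagomiR-122 mice, 3 lie below every control for Ppp1r3b and 3 above every control for Gys2, and antagomiR-122 replicate 4 is the highest library for 5 of the 9 genes. How often other genes have 3 of 4 mice beyond every control was not counted.

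Measured per transcript length, the mean level over the 8 libraries ran from Pygl at 238 FPKM through Pklr at 151, Slc2a2 at 122.3, Gys2 at 103 and Ppp1r3b at 64.7 FPKM. Pfkfb1 at 18.9, Ppp1r3c at 17.7, Pfkfb3 at 3.27 and Ppp1r3g at 0.816 FPKM followed. Within each library Pygl exceeded Pklr, Pklr exceeded Slc2a2 and Gys2 exceeded Ppp1r3b in all 8 mice, although the ranges over mice overlapped. Slc2a2 exceeded Gys2 in 7 mice. Pfkfb1 exceeded Ppp1r3c in 5 of 8, so the order of that pair is not settled. For Ppp1r3b and Pfkfb1, Ppp1r3c and Pfkfb3, and Pfkfb3 and Ppp1r3g the ranges over mice did not overlap.

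Gys2 is the liver isoform of glycogen synthase and the enzyme that limits glycogen synthesis. The gene lies on chromosome 6, 142422613 to 142473109, minus strand (ENSMUSG00000030244). Its level was 75.8, 96.3, 96.0 and 83.4 FPKM in antagomiR-control replicates 1 to 4. With antagomiR-122 it was 94.0, 108, 135 and 138 FPKM in replicates 1 to 4. Replicate 1 of the antagomiR-122 group lay within the control range and the other 3 mice lay above it. The means were 87.9 ± 10.03 and 119 ± 21.02 FPKM (SD, n = 4 each), a ratio of 1.35 and a log2 fold change of 0.42 ± 0.13 (SE, 95% interval 0.12 to 0.72). limma gave an unadjusted p of 0.0111 and a Benjamini-Hochberg adjusted p of 0.509, where 3.76% of tested genes were higher at an unadjusted p under 0.05. The exact two-sided permutation test of the 4 against 4 mice gave p = 0.0857, where the smallest possible is 0.0286. In the authors' deposited table the log2 fold change was 0.43 with p = 0.144 and q = 0.999. Without antagomiR-122 replicate 4 the log2 fold change was 0.34 (limma adjusted p = 0.579).

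Pygl is the liver isoform of glycogen phosphorylase, which releases glucose 1-phosphate from glycogen. The gene is on chromosome 12, 70190811 to 70231488, minus strand (ENSMUSG00000021069). The controls were at 225, 263, 245 and 225 FPKM and the antagomiR-122 mice at 233, 209, 221 and 287 FPKM. The groups had nearly the same mean, 239 ± 18.1 and 237 ± 34.6 FPKM (SD, n = 4 each). The log2 fold change was -0.02 with a 95% interval of -0.26 to 0.22 (limma adjusted p = 0.976), and -0.11 without antagomiR-122 replicate 4. Pygl was the steadiest of the 9 genes in controls, with a coefficient of variation of 7.56%.

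The ratio of Gys2 to Pygl within a library does not depend on scaling between libraries. It was 0.337, 0.367, 0.392 and 0.371 in the controls. With antagomiR-122 it was 0.404, 0.518, 0.610 and 0.479. All 4 antagomiR-122 mice lay above all controls, with means of 0.367 ± 0.0228 and 0.503 ± 0.0857 (SD, n = 4 each). This ratio and that of Gys2 to Ppp1r3b were formed after the values of their genes had been seen, and no test was made of them. How often ratios of other genes separate the groups was not counted. The separation of the Gys2 to Pygl ratio therefore adds no support to the difference in Gys2.

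Ppp1r3b, also called GL, is the main glycogen-targeting subunit of protein phosphatase 1 in liver, and phosphorylase a binds to it and blocks the activation of glycogen synthase. The gene lies on chromosome 8, 35375741 to 35388124, plus strand (ENSMUSG00000046794). Its level was 71.4, 87.1, 83.4 and 63.5 FPKM in antagomiR-control replicates 1 to 4. With antagomiR-122 it was 41.8, 43.0, 51.9 and 75.3 FPKM in replicates 1 to 4. Replicates 1 to 3 were below the lowest control, and replicate 4, the library that stood apart, was inside the control range.

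The means of Ppp1r3b were 76.3 ± 10.9 and 53.0 ± 15.5 FPKM (SD, n = 4 each), so the control mean was 1.44 times that with antagomiR-122. The log2 fold change was -0.55 ± 0.18 (SE, 95% interval -0.95 to -0.14), with a limma unadjusted p of 0.0134 and an adjusted p of 0.544, where 3.67% of tested genes were lower at an unadjusted p under 0.05. The exact permutation test gave p = 0.0857. In the authors' deposited table the log2 fold change was -0.53 with p = 0.00015 and q = 0.0136. Without antagomiR-122 replicate 4 the antagomiR-122 mean was 45.6 ± 5.54 FPKM (SD, n = 3) and the groups no longer overlapped, as in 8.26% of tested genes without that mouse (4.32% towards lower values). The log2 fold change was then -0.73 ± 0.13 (SE), with a limma unadjusted p of 0.000307 and an adjusted p of 0.391.

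Gys2 exceeded Ppp1r3b 1.06-, 1.11-, 1.15- and 1.31-fold in the controls. With antagomiR-122 it exceeded Ppp1r3b 2.25-, 2.52-, 2.59- and 1.83-fold in replicates 1 to 4. The groups were apart on this ratio, with means of 1.16 ± 0.11 and 2.30 ± 0.346 (SD, n = 4 each), and replicate 4 lay nearest to the controls. The ratio was formed after both genes had been seen to differ most and in opposite directions. Its separation therefore adds no support to either difference.

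**Figure D2:**
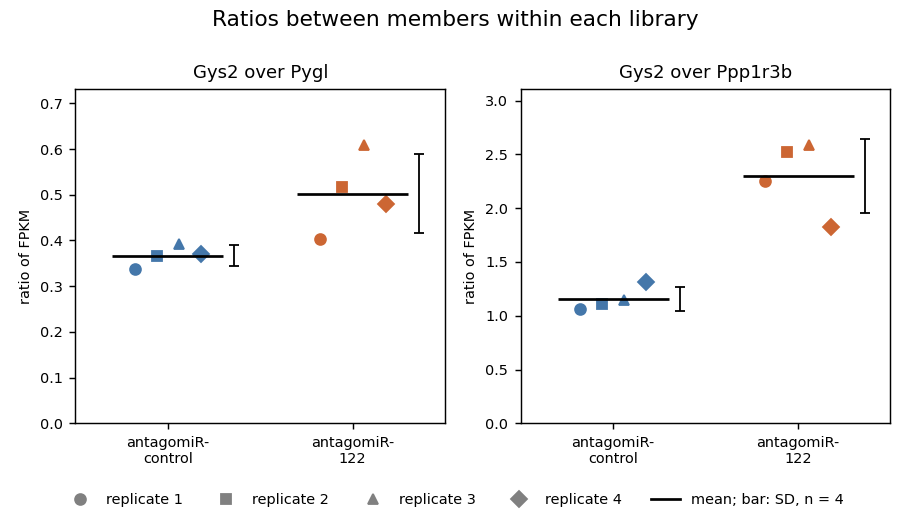
Ratios of FPKM within each library, Gys2 over Pygl (left) and Gys2 over Ppp1r3b (right), 1 symbol per mouse, with the mean (line) and SD (bar, n = 4). Every antagomiR-122 mouse lies above every control in both panels, from 0.404 against at most 0.392 on the left and from 1.83 against at most 1.31 on the right. Both ratios were formed after the values of their genes had been seen, and neither was tested.

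Ppp1r3c, also called PTG, is a targeting subunit that binds the synthase and the phosphorylase and is found in many tissues. It lies on chromosome 19, 36731737 to 36736653, minus strand (ENSMUSG00000067279). The controls were at 24.1, 14.7, 16.0 and 14.7 FPKM and the antagomiR-122 mice at 11.9, 16.2, 12.1 and 31.9 FPKM. In each group 1 mouse was far above the others, replicate 1 of the controls and replicate 4 with antagomiR-122. The means were 17.4 ± 4.51 and 18.0 ± 9.46 FPKM (SD, n = 4 each) and the log2 fold change was -0.03 (95% interval -0.71 to 0.65, limma adjusted p = 0.984), while the linear means have the opposite order. Without antagomiR-122 replicate 4 the mean with antagomiR-122 was 13.4 ± 2.42 FPKM (SD, n = 3) and the log2 fold change was -0.33 (limma adjusted p = 0.638).

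Ppp1r3g is a targeting subunit that in mouse liver is induced by fasting and takes part in postprandial glycogen synthesis. Its position is chromosome 13, 35958839 to 35970388, plus strand (ENSMUSG00000050423). The controls were at 0.507, 0.533, 0.967 and 0.719 FPKM. The antagomiR-122 mice were at 1.02, 1.16, 1.06 and 0.570 FPKM. Replicates 1 to 3 with antagomiR-122 were above every control and replicate 4 was within the control range. The means were 0.681 ± 0.213 and 0.951 ± 0.261 FPKM (SD, n = 4 each) and the log2 fold change was 0.21 (exact permutation test, two-sided p = 0.143). At this low level the value depends on the pseudocount, and it was 0.43 with a pseudocount of 0.1 (exact p = 0.171). With a mean under 1 FPKM this gene was outside the limma fit, and an estimated 28 to 72 fragments per library stood behind its values, against at least 270 for the other 8 genes. Without replicate 4 the log2 fold change was 0.31 (exact p = 0.0571, the smallest that 4 against 3 mice can give). In the authors' deposited table the log2 fold change was 0.48 with p = 0.169 and q = 0.999.

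Ppp1r3b made up most of the summed FPKM of the 3 targeting subunits in every library. Its share was 80.8% ± 4.64 and 74.3% ± 4.61 in controls and antagomiR-122 mice (SD, n = 4), with overlapping groups. The ratio of Ppp1r3b to Ppp1r3c was 4.61 ± 1.27 and 3.20 ± 0.875.

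**Figure D3:**
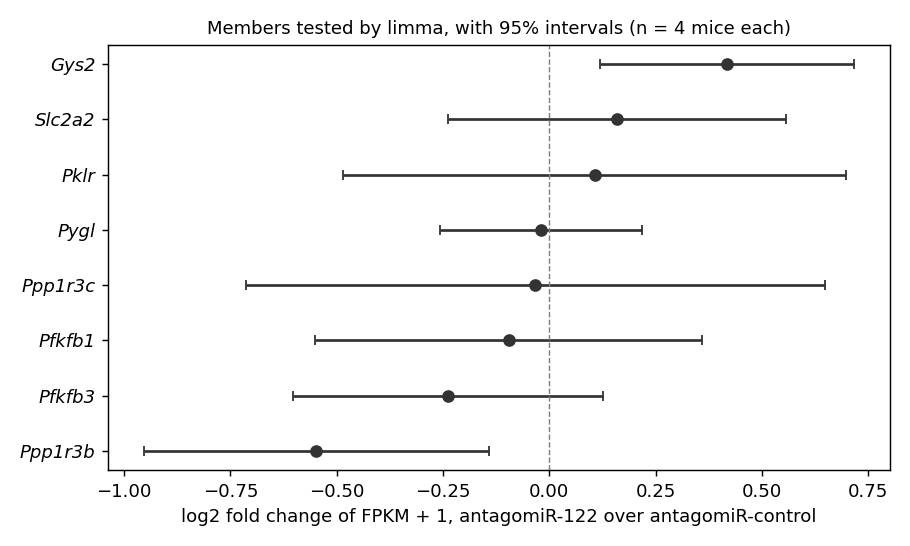
Log2 fold change of FPKM + 1 (antagomiR-122 over antagomiR-control, x axis) with its 95% interval from limma for the 8 tested genes, n = 4 mice per group. The unadjusted intervals of Ppp1r3b (-0.95 to -0.14) and Gys2 (0.12 to 0.72) lie to either side of 0 and the other 6 span it.

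Slc2a2 encodes GLUT2, the low-affinity glucose transporter of hepatocytes. It is on chromosome 3, 28697903 to 28728363, plus strand (ENSMUSG00000027690). The controls were at 102, 133, 132 and 92.7 FPKM and the antagomiR-122 mice at 123, 93.7, 136 and 166 FPKM. The groups overlapped, at 115 ± 20.6 and 130 ± 29.8 FPKM (SD, n = 4 each), with a log2 fold change of 0.16 (95% interval -0.24 to 0.56, limma adjusted p = 0.869). Replicate 4 with antagomiR-122 was the highest mouse, and without it the log2 fold change was 0.032.

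Pklr makes the liver form of pyruvate kinase, the last enzyme of glycolysis, from a downstream start site and the red cell form from an upstream one. It is on chromosome 3, 89136142 to 89146784, plus strand (ENSMUSG00000041237). The controls were at 109, 195, 161 and 114 FPKM. The antagomiR-122 mice were at 137, 104, 162 and 229 FPKM. The groups overlapped, at 145 ± 41.0 and 158 ± 53.0 FPKM (SD, n = 4 each), with a log2 fold change of 0.11 (95% interval -0.49 to 0.70, limma adjusted p = 0.950). Without antagomiR-122 replicate 4, again the highest mouse, the direction turned, with a log2 fold change of -0.091 (limma adjusted p = 0.920). The gene values do not separate the start sites. Exons of Hcn3, on the opposite strand, overlap those of Pklr in the annotation, and reads of both cannot be told apart there, since the strand setting is not known. Hcn3 was listed at 14.8 to 36.7 FPKM. Erythroid marker genes summed to 167 to 250 FPKM in controls and 195 to 350 FPKM with antagomiR-122, and their part in the Pklr values was not tested.

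Pklr and Slc2a2 varied together from liver to liver. Over the 8 mice the correlation of their log2(FPKM + 1) was r = 0.950 (exact permutation p = 0.00062, Benjamini-Hochberg adjusted over 36 pairs of the 9 genes 0.0223). Spearman's rho was 0.905 (exact permutation p = 0.00456, adjusted 0.164). Without the 2 mice farthest from the Slc2a2 median, r was 0.941 (exact p = 0.0125), and without antagomiR-122 replicate 4 it was 0.916. For deviations from the group means, r was 0.960, so the relation was as tight within the groups. Pygl and Pklr had r = 0.886 (exact p = 0.00208, adjusted 0.0375) and rho = 0.738 (exact p = 0.0458, adjusted 0.397). For deviations from the group means r was 0.907, and without antagomiR-122 replicate 4 it was 0.802. Without the 2 mice farthest from the Pygl median, antagomiR-control replicate 2 and antagomiR-122 replicate 4, r was 0.617 over the remaining 6 (exact p = 0.194), so its call rests on these mice together. No other pair passed the adjustment on r, and no pair passed on rho. How often other pairs of genes reach such r in these libraries was not counted. Genes outside the 9 followed Slc2a2 more closely than Pklr did, with r = 0.988 for Abhd14b and 0.977 for Pgd. These calls therefore do not set the pairs of members apart from other pairs of genes. Values from 1 library share its depth and composition.

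**Figure D4:**
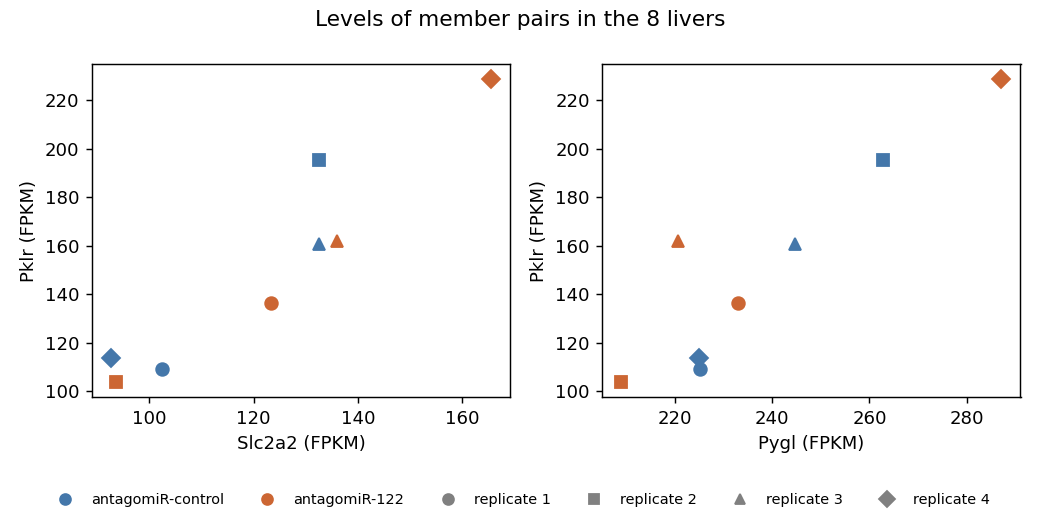
FPKM of Pklr (y axis) against Slc2a2 (left) and Pygl (right) in the 8 livers, coloured by group with 1 symbol per replicate number; the axes do not start at 0. Pklr ran from 104 to 229 FPKM and increased with Slc2a2 across mice of both groups, while the highest 2 livers for Pygl are also the highest 2 for Pklr.

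The Pklr promoter is shown because it carries the carbohydrate response element, the pair of E-boxes through which the glucose-sensing factor ChREBP acts on this gene, and the Slc2a2 promoter because its gene varied with Pklr. Both are the 250 bases before the RefSeq start on GRCm38.p6, plus strand, 5′ to 3′. Capitals mark a match to CACGNG and CNCGTG with 5 bases between them, at bases 170 to 154 before the Pklr start.
Pklr, liver start, chr3:89136373-89136622: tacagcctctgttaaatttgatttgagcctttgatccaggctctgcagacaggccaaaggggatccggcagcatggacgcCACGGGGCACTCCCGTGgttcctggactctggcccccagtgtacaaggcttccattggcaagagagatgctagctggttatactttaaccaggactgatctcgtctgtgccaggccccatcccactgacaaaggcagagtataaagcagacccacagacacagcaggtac
Slc2a2, chr3:28697653-28697902: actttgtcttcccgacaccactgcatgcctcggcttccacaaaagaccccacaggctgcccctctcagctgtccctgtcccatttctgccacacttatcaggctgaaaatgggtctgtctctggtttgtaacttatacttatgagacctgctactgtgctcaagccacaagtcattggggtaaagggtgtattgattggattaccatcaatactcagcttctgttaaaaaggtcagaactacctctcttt

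Of 32851 RefSeq promoters of this length with 50 bases after the start, 15 (0.0457%) hold that motif on either strand. It was found in 1 of the 12 promoters listed for 7 of the 9 genes. The plain E-box CACGTG, which is bound by basic helix-loop-helix factors, was in 7.15% of all promoters and in 2 of the 12, those of Ppp1r3c and Pfkfb3. These are shown with 30 bases on each side, with the E-box in capitals, both from the minus strand.
Ppp1r3c, chr19:36736673-36736738: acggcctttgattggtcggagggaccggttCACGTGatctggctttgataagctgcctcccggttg
Pfkfb3, chr2:11502108-11502173: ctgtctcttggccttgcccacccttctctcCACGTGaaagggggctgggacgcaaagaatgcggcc
A match is a run of letters and not a measured binding site.

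Pfkfb1 is the liver form of the bifunctional enzyme that makes and degrades the activator of phosphofructokinase, and its phosphorylation by protein kinase A turns it towards degradation. The gene is on chromosome X, 150588229 to 150643878, plus strand (ENSMUSG00000025271). The controls were at 13.6, 20.7, 19.7 and 24.1 FPKM and the antagomiR-122 mice at 19.6, 12.0, 19.2 and 22.3 FPKM. The groups overlapped, at 19.5 ± 4.35 and 18.3 ± 4.37 FPKM (SD, n = 4 each), with a log2 fold change of -0.10 (95% interval -0.55 to 0.36, limma adjusted p = 0.941), and -0.20 without antagomiR-122 replicate 4. Exons of Apex2 overlap it on the opposite strand, at 2.24 to 4.03 FPKM.

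Pfkfb3 is the isoform with the strongest kinase activity and is widely expressed outside the hepatocyte. It lies on chromosome 2, 11471433 to 11554077, minus strand (ENSMUSG00000026773). The controls were spread over 2.42, 3.81, 5.23 and 3.20 FPKM. The antagomiR-122 mice were close together at 3.05, 2.59, 2.75 and 3.07 FPKM, all inside the control range. The means were 3.66 ± 1.19 and 2.87 ± 0.234 FPKM (SD, n = 4 each) and the log2 fold change was -0.24 (95% interval -0.60 to 0.13, limma adjusted p = 0.797). In the authors' deposited table p was 0.0404 and q was 0.639. Without antagomiR-control replicate 3, the highest mouse, the log2 fold change was -0.09 (limma adjusted p = 0.930). Without antagomiR-control replicate 1, the lowest mouse, it was -0.38 (limma unadjusted p = 0.0257, adjusted p = 0.844). Pfkfb1 exceeded Pfkfb3 5.59 ± 1.54 times in controls and 6.32 ± 1.17 times with antagomiR-122.

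Over the 9 genes, 4 had a higher and 5 a lower mean log2 value with antagomiR-122. The smallest adjusted p over all tested genes was 0.251. An unadjusted limma p under 0.05 was reached by 2 of the 8 genes in the fit, Gys2 and Ppp1r3b, beside 828 of all tested genes (7.44%). Groups that do not overlap were found in 0 of the 9 genes, beside 4.52% of those tested. The median log2 fold change of the 8 was -0.03, beside 0.01 over all tested genes. Replicate 4 of antagomiR-122 held the highest value of the 8 libraries for 5 of the 9 genes, Gys2, Pygl, Ppp1r3c, Slc2a2 and Pklr, beside 14.9% of tested genes.

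The remaining genes of the pathway were taken from 8 lists of 104 genes. Of the 79 that were tested, 0 passed the threshold in either direction (limma, smallest adjusted p = 0.308), 41 were higher and 38 lower in value, and the median log2 fold change was 0.02. An unadjusted p under 0.05 was reached by 9 of the 79, or 11.4%, beside 7.44% of all tested genes. Groups were apart in 5, or 6.33%, beside 4.52% of all tested genes. The plot of the lists shows how closely most of them centred on 0.

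**Figure D5:**
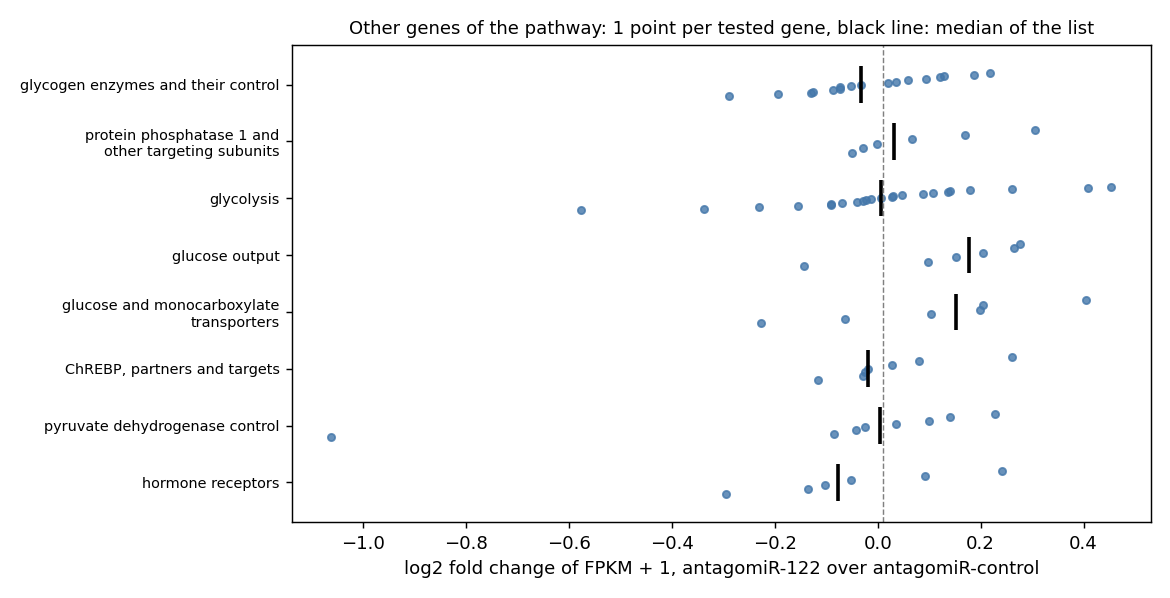
Log2 fold change of FPKM + 1 (x axis) for each tested gene of 8 lists, 1 point per gene, with the median of each list as a black line and the median of all tested genes as a dashed line. List medians run from -0.08 for hormone receptors to 0.18 for glucose output, and the point farthest left is Pdk4 at -1.06.

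Glycogen enzymes and their regulators, 17 of 21 tested, had 8 higher and 9 lower values and a median log2 fold change of -0.03. The smallest p belonged to Pgm2, a phosphoglucomutase (0.12), Pygb, the brain phosphorylase (-0.29), Phkb, a phosphorylase kinase subunit (-0.13), and Gsk3a, a kinase of glycogen synthase (0.13). The smallest adjusted p of the list was 0.742. Among the phosphatase genes, 6 of 10 tested, 3 were higher and 3 lower. Ppp1r3e, another glycogen-targeting subunit, was at 2.69, 2.08, 3.37 and 3.13 FPKM in controls and 3.67, 4.07, 3.43 and 3.57 FPKM with antagomiR-122. Its groups were apart, with a log2 fold change of 0.30 ± 0.12 (SE, limma adjusted p = 0.613). The catalytic subunits Ppp1cc, Ppp1ca and Ppp1cb had log2 fold changes of 0.17, 0.07 and -0.05, each smaller in size than that of Ppp1r3b, a difference that was not tested.

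In glycolysis 23 of 27 genes were tested, 12 higher and 11 lower in value, with a median of 0.01. Eno1, an enolase, had 203 ± 11.9 and 244 ± 21.4 FPKM (SD, n = 4 each), with groups apart and a log2 fold change of 0.26 (limma adjusted p = 0.522). Gpi1, which interconverts glucose and fructose phosphates, had a log2 fold change of 0.41 (limma adjusted p = 0.613).

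Glucose output genes had 5 of 6 tested members higher in value, beside 53.0% of all tested genes, with a median of 0.18. Fbp1, which reverses the phosphofructokinase step, was at 557 ± 50.4 and 675 ± 67.5 FPKM (SD, n = 4 each), with groups apart and a log2 fold change of 0.28 (limma adjusted p = 0.580). Pcx, pyruvate carboxylase, G6pc3, a phosphatase of glucose 6-phosphate, and Slc37a4, which carries that sugar into the endoplasmic reticulum, had 0.15, 0.21 and 0.27. G6pc, the gene of this list that was lower in value, was at 401 ± 72.2 and 368 ± 98.4 FPKM (SD, n = 4 each). Its log2 fold change was -0.14 (limma adjusted p = 0.898), and that of Pck1 was 0.10 (limma adjusted p = 0.947). Transporters had 4 of 6 tested higher, with Slc16a1, a lactate carrier, at -0.23, Slc2a5, a fructose carrier, at 0.41, Slc2a1 at 0.20 and Slc16a7 at 0.20. The smallest adjusted p of the transporters was 0.670.

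ChREBP and its partners and targets, all 7 tested, had 3 higher and 4 lower values and a median of -0.02 (limma, smallest adjusted p = 0.883). Mlxipl, which encodes ChREBP itself, was at 90.4 ± 17.1 and 83.1 ± 13.004 FPKM (SD, n = 4 each). Mlx, Thrsp and Mlxip had log2 fold changes of 0.08, 0.26 and -0.02. In pyruvate dehydrogenase control, with 4 of 8 higher, Pdhb, Mpc1 and Mpc2 had 0.23, 0.14 and 0.10. Pdk4, the kinase that shuts pyruvate dehydrogenase in fasting, was at 129, 29.3, 31.6 and 63.5 FPKM in controls and 23.1, 57.7, 23.5 and 11.6 FPKM with antagomiR-122, with overlapping groups (log2 fold change -1.06 ± 0.60, SE, limma adjusted p = 0.759).

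Of the hormone receptors, 6 of 9 were tested, with 2 higher and 4 lower. Adra1b, the main α1-adrenergic receptor of mouse liver, was at 24.1 ± 2.73 and 19.5 ± 2.66 FPKM (SD, n = 4 each) with a log2 fold change of -0.29 (limma adjusted p = 0.604). Adra1a, at 1.49 ± 0.212 and 1.94 ± 0.212 FPKM, had groups apart and a log2 fold change of 0.24 (limma adjusted p = 0.658). Gcgr, the glucagon receptor, had 0.09. Adrb3, the receptor that CL316243 acts on, was at 1.35 ± 0.314 and 1.13 ± 0.227 FPKM (log2 fold change -0.14).

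The genes whose log2(FPKM + 1) followed each member most closely over the 8 livers were sought among 10960 named tested genes, as a description without a test. Mtor and Sf3b2 followed Gys2, with r = 0.993 and 0.980. Mtor had means of 11.8 FPKM in controls and 15.1 with antagomiR-122. Klrk1 and Fam46a followed Pygl (0.985 and 0.980), Amt and Zfp932 followed Ppp1r3b (0.950 and 0.944), and Gm10033 and Glrx2 followed Ppp1r3c (0.925 and 0.924). Crls1 and Acaa1b followed Ppp1r3g (0.985 and 0.960), and Abhd14b and Pgd followed Slc2a2 (0.988 and 0.977). Nhlrc3 and Trim65 followed Pklr (0.984 and 0.977), Tango2 and Gm15622 followed Pfkfb1 (0.936 and 0.934), and Cyth1 and Trmu followed Pfkfb3 (0.965 and 0.964). Klrk1 was low, at 0.655 to 1.94 FPKM over the 8 libraries. All rest on the same 8 libraries, and no p is given. Each pair was picked as the highest of 10960 genes, so a high r is partly a matter of that choice.

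The livers carried the markers of their tissue. Of 8 hepatocyte markers 7 were above 1 FPKM, and the remaining one, Alb, was listed at 0 in all libraries, which can be a failed estimate. Their sum was 12185 to 14672 FPKM in controls and 12315 to 14398 FPKM with antagomiR-122. Kupffer cell markers summed to 208 to 284 and 214 to 263 FPKM, endothelial markers to 88.3 to 92.9 and 84.9 to 101, and stellate cell markers to 128 to 188 and 91.9 to 188 FPKM. Cholangiocyte markers summed to 30.4 to 38.7 FPKM in controls and 26.0 to 30.5 with antagomiR-122, and lymphocyte and neutrophil markers to 8.74 to 24.6 and 6.56 to 14.3 FPKM. The groups overlapped for each of these sums, and their part in the values of the 9 genes was not tested. Most of the cholangiocyte sum was Spp1, at a mean of 28.6 FPKM. The cholangiocyte sums overlapped only between 30.4 and 30.5 FPKM. Taken singly, the 2 tested cholangiocyte markers were both lower in value with antagomiR-122, and 1 of them, Spp1, had groups apart. Of the 6 stellate cell markers 5 were lower in value, and 1 had groups apart, lower with antagomiR-122. Groups were apart in 4.52% of all tested genes. Markers of fat and muscle were at or near 0, with sums of at most 0.511 FPKM.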

How the data were processed

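Per the submitters' processing notes, Cufflinks 2.2.1 and Cuffdiff followed TopHat2 2.0.13 on GRCm38, and cutadapt 1.7.1 and bcl2fastq 2.15.0.4 were also used. Annotation release, strand setting and library scaling were not given in the sources used here. FPKM per mouse and per group were deposited by the authors, with a log2 fold change, a test statistic (a score), a p-value and a q-value from the authors' test. As FPKM cannot enter a count model, none was fitted. All 186 rows of a second deposited table were in the first. Columns were matched to mice by group and replicate number of the titles, and 1 of 43630 entries, without values, was left out. That each mouse is a separate sample is stated in the labels.

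log2(FPKM + 1) was tested with limma 3.58.1 in R 4.3.3 (two-sided, robust, with a trend) on the 11131 genes whose mean reached 1 FPKM, and single values with exact permutation tests (scipy 1.17.1). The pseudocount of 1 understates the change of low genes. The scripts were tested on simulated data. Fragment numbers were estimated from the smallest FPKM × length of genes with 1 transcript over 1500 bases in GENCODE M21 (5 to 100 FPKM × bases), and cover counting error only. The members and lists were chosen with earlier results of these data known. The named genes are the 9 members, the 4 of each list with the smallest p, G6pc and Pck1 of the glucose output list, and the 2 most like each member. Of these, 2 genes of the glycolysis list are not reported here. Promoters are from RefSeq.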

Additional observations from a re-analysis of the deposited data

Results flagged for a closer look

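Ppp1r3c in antagomiR-control replicate 1, at 24.1 FPKM, lay far from the other 3 controls, of which the nearest was at 16.0 FPKM. The gap took 0.858 of the range of the group, above Dixon's 95% critical value for 4 samples. Of 18 groups looked at, the 9 genes in each of 2 groups, this was the 1 flagged, and chance flags about 1 in 20.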

How the results depend on the processing

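Under 9 other settings and with each of the 8 mice left out, 0 genes passed limma's threshold, among the 9 members, the other pathway genes or all tested genes. With all mice the 9 settings turned no direction of a member. With a mouse left out the log2 fold change lay between 0.34 and 0.52 for Gys2, -0.73 and -0.45 for Ppp1r3b, 0.16 and 0.31 for Ppp1r3g, 0.03 and 0.30 for Slc2a2 and -0.38 and -0.09 for Pfkfb3. It crossed 0 for Pygl (-0.11 to 0.038), Ppp1r3c (-0.33 to 0.13), Pklr (-0.091 to 0.29) and Pfkfb1 (-0.25 to 0.082), and the cause was not tested. Same-numbered mice of the groups correlated at 0.128, -0.238, -0.0611 and -0.184, beside -0.206 to 0.335 for mice of different number. So few values cannot decide whether the replicate numbers pair the mice. With the replicate block 0 genes passed in limma. The unadjusted p was then 0.00742 for Gys2 (adjusted 0.631) and 0.0306 for Ppp1r3b (adjusted 0.778). Genes at an unadjusted p under 0.05, 419 higher and 409 lower, became 332 and 203 when libraries were rescaled to one sum, where Ppp1r3b was not among them, and 613 and 683 without the filter. Pfkfb3 lay under the filter of 5 FPKM. For Ppp1r3g, outside the fit, no value was had under quantile normalization, the filters, the prior or the block. The estimated fragments limit Ppp1r3g most.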

Other observations

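Of the pathway genes under the filter of 1 FPKM, some encode isoforms known from other tissues, and their lowest and highest values over the 8 libraries are given here. Gys1, the muscle glycogen synthase, was at 0.422 to 1.29 FPKM and Pygm, the muscle phosphorylase, at 0.198 to 1.01 FPKM. Ppp1r3a, the targeting subunit of skeletal muscle, reached at most 0.0157 FPKM and Ppp1r3d at most 0.313. Slc2a4, the insulin-regulated transporter GLUT4, ran from 0 to 0.810 FPKM and Slc2a3 from 0.154 to 0.877. Hk2 was at 0.490 to 1.60 FPKM and Pfkfb4 at 0.225 to 0.598 FPKM. These genes were chosen because they lay under the filter, after their values were seen, and were not tested, so they do not stand for such isoforms in general.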
